A study of Mus musculus with 2 samples.

Results

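Tcf3, Tcf4, Tcf12, Id1, Id2, Id3 and Id4 are the mouse genes for the E proteins and for their inhibitors, the Id proteins. They were chosen by name, not by a rule on any measured value, though earlier results of these data were known. They are 7 of the 21938 protein-coding genes of GENCODE vM21 on the autosomes and the chromosomes X and Y. Each gene was read together with 20 kb on either side, 930.6 kb in all. The data were DNase-seq, in which the enzyme DNase I cuts DNA where chromatin is accessible, in 2 libraries from the thymus of male B6CASTF1/J mice, an F1 hybrid strain, aged 36 days. Both libraries belong to 1 group, for which no treatment is given, labelled replicate 1 and replicate 2. They came from separately labelled thymus samples under one donor identifier, and whether 1 or 2 mice were used is not known. No other genotype was part of the series. The whole tissue was used, so a region open in fewer cells and a region less open in each cell cannot be told apart.

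E proteins are basic helix-loop-helix transcription factors that bind as dimers to the E-box, the DNA sequence CANNTG, of which CAGCTG and CAGGTG are well-known forms. Id proteins have the helix-loop-helix but lack the DNA-binding basic region, so that an E protein paired with an Id protein is held off DNA. In developing thymocytes the products of Tcf3 and Tcf12 support T lineage gene expression and act at the pre-T cell receptor checkpoint, and Id3 is raised by signals from the T cell receptor through EGR factors. Id2 is best known in innate lymphoid and natural killer cells, Tcf4 in plasmacytoid dendritic cells and neurons, Id1 as a target of BMP and SMAD signalling, and Id4 in neural and epithelial tissues.

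The library labelled replicate 1 went against its tissue label. Of 13 thymocyte marker genes, 2 had an open promoter there (Lck and Tcf7) and 13 had one in the library labelled replicate 2. The summed promoter signal of this list was 8.30 and 87.3. Of 12 markers of pancreatic acinar cells, which make digestive enzymes, 12 were open in the library labelled replicate 1, at percentiles of 79.9 to 98.1, and 3 in the one labelled replicate 2 (Cela1, Rbpjl and Bhlha15), with summed signals of 70.5 and 11.8. The other lists gave, in the order replicate 1 and replicate 2, B cell markers 3 and 3 of 7, myeloid and dendritic markers 1 and 2 of 7, thymic epithelium 3 and 3 of 7, endothelium 1 and 2 of 4, fibroblast and mural cells 3 and 3 of 4, and liver 3 and 0 of 4. Over all protein-coding genes 63.1% and 60.1% had an open promoter. Foxn1, Psmb11, Krt5 and Krt14 of thymic epithelium and Cd79a, Cd79b and Ms4a1 of B cells had no promoter peak in either library. Peak counts and signals below are therefore given for each library on its own. Results that combine the 2 libraries, such as shared regions and signal ratios, rest on both of these marker profiles. The part of these marker differences in any result below was not tested. With 1 group of 2 libraries there was also no test with libraries as replicates. The values are descriptions set beside the same values over all genes.

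The sequences that carry the main results are shown first, 5′ to 3′ along the strand of their gene, on GRCm38, the assembly of mm10. They are reference sequence and do not show the alleles of the hybrid. Capitals mark bases inside a footprint of both libraries. A footprint is a short stretch protected from cutting inside open chromatin. The Tcf3 promoter, the 250 bases before the RefSeq start (GRCm38.p6) at chr10:80433636-80433885 on the minus strand, and the Id4 promoter, the same window at chr13:48260866-48261115 on the plus strand, are shown because the footprints of the 2 libraries covered many of the same bases at the former and few at the latter. Id1 is represented by its strongest promoter peak, which lies upstream of the start at chr2:152735101-152735280.
Tcf3 promoter: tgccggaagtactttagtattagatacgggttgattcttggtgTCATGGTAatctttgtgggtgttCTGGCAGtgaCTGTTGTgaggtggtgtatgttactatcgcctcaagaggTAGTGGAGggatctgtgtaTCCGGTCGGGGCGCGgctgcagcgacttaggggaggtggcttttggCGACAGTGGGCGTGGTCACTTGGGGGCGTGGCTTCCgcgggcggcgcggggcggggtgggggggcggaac
Id4 promoter: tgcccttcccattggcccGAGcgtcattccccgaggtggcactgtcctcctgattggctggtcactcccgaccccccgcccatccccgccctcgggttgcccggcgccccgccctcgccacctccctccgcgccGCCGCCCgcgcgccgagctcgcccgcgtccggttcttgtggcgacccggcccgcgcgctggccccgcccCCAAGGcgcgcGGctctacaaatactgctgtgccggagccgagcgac
Id1 upstream promoter peak: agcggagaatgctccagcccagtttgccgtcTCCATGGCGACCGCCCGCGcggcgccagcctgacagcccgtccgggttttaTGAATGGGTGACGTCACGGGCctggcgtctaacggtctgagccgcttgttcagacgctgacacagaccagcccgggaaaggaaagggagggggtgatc

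Of the bases of the Tcf3 window, 96 lay in footprints of the library labelled replicate 1, 102 in those of the one labelled replicate 2 and 81 in both. The Id4 window had 99, 28 and 18. The Id1 peak had 40, 73 and 40, so every footprinted base of the library labelled replicate 1 was also in a footprint of the other. Its second capital run holds TGACGTCA, the site of CREB-type factors, which stood in 200-base windows on 1.5% and 1.93% of all promoter peaks of the 2 libraries. Of the promoter table, 5 of the 7 genes had entries, with 7 windows (3 of them of Tcf12), all identical to the genome. The word GGGCGG of SP and KLF factors, on either strand, stood in 6 of these 7 windows, against 32.7% of all 32851 such windows. CAGCTG stood in 2 (Tcf12 and Id2) against 13% of all, and CAGGTG in 0 against 17.2%. CANNTG, which includes both, stood in 4 against 66.2%. A match is a description of the letters only, and no match says nothing about a factor.

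Of the distal regions open in both libraries that hold CAGCTG or CAGGTG, 4 are shown. They are the overlap of the strongest peaks of both libraries. The Tcf3 region lies at chr10:80446321-80446480 on the minus strand, 12.8 kb upstream of the gene. The Id2 region lies at chr12:25098781-25099060 on the minus strand, upstream of the gene. The Id3 regions lie on the plus strand at chr4:136147801-136148020, 4.42 kb past the 5′ end, and at chr4:136163601-136163780, 20.2 kb past it. None of these 4 overlaps an annotated exon of its gene.
Tcf3 upstream region: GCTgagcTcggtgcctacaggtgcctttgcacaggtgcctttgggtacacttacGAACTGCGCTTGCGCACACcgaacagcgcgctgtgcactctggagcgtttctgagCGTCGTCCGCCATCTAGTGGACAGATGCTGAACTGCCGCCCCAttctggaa
Id2 upstream region: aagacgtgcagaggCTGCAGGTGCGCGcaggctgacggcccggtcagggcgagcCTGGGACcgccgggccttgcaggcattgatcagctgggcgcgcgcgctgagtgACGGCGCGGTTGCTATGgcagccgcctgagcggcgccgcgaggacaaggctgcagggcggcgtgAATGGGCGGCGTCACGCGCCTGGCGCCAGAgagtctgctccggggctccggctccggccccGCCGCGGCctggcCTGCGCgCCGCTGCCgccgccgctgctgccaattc
Id3 downstream region at 4.42 kb: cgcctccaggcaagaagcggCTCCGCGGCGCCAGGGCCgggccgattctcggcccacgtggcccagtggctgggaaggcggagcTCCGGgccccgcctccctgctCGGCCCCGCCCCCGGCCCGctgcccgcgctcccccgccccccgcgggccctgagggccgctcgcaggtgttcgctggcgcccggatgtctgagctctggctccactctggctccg
Id3 downstream region at 20.2 kb: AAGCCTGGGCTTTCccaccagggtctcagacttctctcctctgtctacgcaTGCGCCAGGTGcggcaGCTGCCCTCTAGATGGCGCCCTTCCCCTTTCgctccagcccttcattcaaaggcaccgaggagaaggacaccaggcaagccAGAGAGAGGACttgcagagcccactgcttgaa

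The Tcf3 region holds CAGGTG at 2 positions, neither inside a footprint of both libraries, and 66 of its 160 bases were in footprints of both. In the Id2 region CAGGTG falls in the first long capital run, and CAGCTG lies outside the capitals. The Id3 region at 4.42 kb holds CAGGTG outside the capitals. The Id3 region at 20.2 kb holds CAGGTG at the end of a capital run and CAGCTG across the start of the next one.

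All 7 genes had an open promoter, meaning a peak within 1 kb of an annotated transcript start, in both libraries. Over all protein-coding genes 63.1% had one in the library labelled replicate 1, 60.1% in the one labelled replicate 2 and 56.7% in both. Peak signal, the authors' value per peak, is given with its percentile among all peaks of the same library, since the sources used here do not give the scaling of the signal. The strongest promoter peak of Tcf3 had a signal of 5.14 (percentile 91.2) in the library labelled replicate 1 against 10.6 (92.1) in the one labelled replicate 2, and values below keep this order. For Tcf12 they were 4.16 (87.2) and 8.06 (88.2), so that both genes held nearly the same rank in both libraries, near the median of all genes with a promoter peak, which was 89.8 and 87.8. The strongest promoter peak of Tcf4 was not the same one in both libraries. It lay at an internal start in the library labelled replicate 1, with 5.64 (92.8), and near the 5′ end in the one labelled replicate 2, with 10.2 (91.6). At the internal start the values were 5.64 (92.8) and 6.52 (84.8), and near the 5′ end 4.95 (90.5) and 10.2 (91.6).

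Among the Id genes, Id2 had the strongest promoter of the 7 in both libraries, with 7.88 (97.3) and 13.2 (94.9). Id3 had 3.92 (85.9) and 11.7 (93.4), below 4 of the other genes by percentile in the library labelled replicate 1 and below Id2 alone in the one labelled replicate 2. Id1 had 2.23 (71.1) and 4.03 (75.7), from the peak 1.05 kb upstream shown above. At its own start the Id1 signal was lower, 1.73 (62.3) and 2.74 (66.1). Id4 had 3.76 (84.9) in the library labelled replicate 1 against 0.470 (4.4) in the one labelled replicate 2, where it was the weakest promoter of the 7. The median percentile of the 7 was 87.2 and 91.6. The midpoint of the Id4 peak also lies inside the noncoding genes A330033J07Rik and Gm49291, so its signal cannot be given to Id4 alone.

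**Figure D1:**
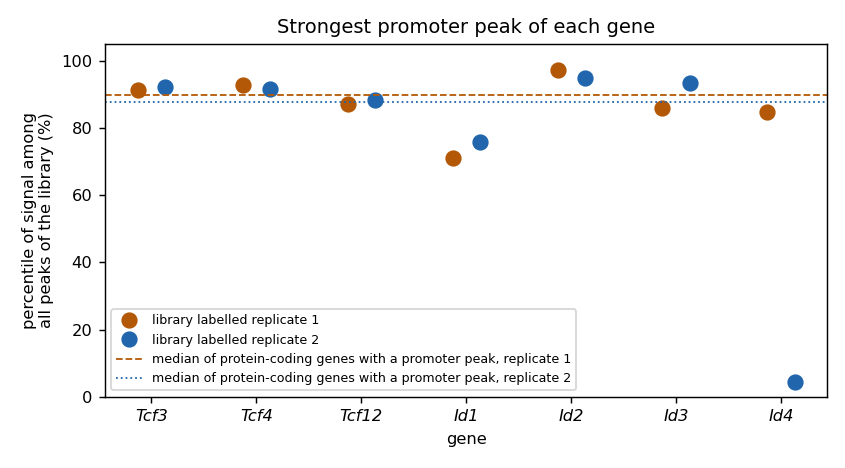
Percentile of the strongest promoter peak of each gene among all peaks of its library (vertical axis, percent), one point per library, with lines at the medians of all protein-coding genes that have a promoter peak (89.8 and 87.8). The points of a gene lie farthest apart at Id4 (84.9 and 4.4), and those of Tcf4 (92.8 and 91.6) are peaks at separate starts.

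The strongest promoter peak of Tcf3 held 12 footprints in the library labelled replicate 1 against 7 in the one labelled replicate 2, where the peak was narrower (640 and 200 bp). The 640 bp peak also spanned a second peak of the library labelled replicate 2 (80433901 to 80434260), with 7 footprints. The 2 Tcf3 counts are therefore from unequal intervals. Id2 had 9 and 8, Tcf12 8 and 8, Id3 5 and 4, Id4 3 and 3, and Id1 2 and 3. Tcf4 had 8 and 7 near the 5′ end and 5 and 4 at the internal start. Of all footprints, not only those in promoter peaks, 35.1% and 39.4% overlapped one of the other library. At Id2, 8 of the 9 and 8 of the 8 overlapped a footprint of the other library. At Id3, 5 of 5 and 4 of 4 did. At Tcf3, 11 of 12 and 3 of 7 did, at Tcf12 6 of 8 and 7 of 8, and at Id1 2 of 2 and 2 of 3. In the second Tcf3 peak of the library labelled replicate 2, 5 of 7 did. At Tcf4, 6 of 8 and 6 of 7 did near the 5′ end, and 4 of 5 and 3 of 4 at the internal start. At Id4, 1 of 3 and 3 of 3 did, and its peak was 80 bp wide in the library labelled replicate 1 and 249 bp in the one labelled replicate 2.

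The genes have 106 annotated transcripts, whose starts were joined into 36 clusters when within 500 bp of each other. A cluster was open when a peak lay within 500 bp of it. The same 13 clusters were open in each library, and none was open in 1 library only. Over the 52546 start clusters of all protein-coding genes, the open share was 32.9% in the library labelled replicate 1, 30.3% in the one labelled replicate 2 and 26.9% in both. Of the first clusters of a gene, 6 of the 7 were open in each library and in both, against 56.7%, 53.5% and 50.1% of all. Of the 29 later ones, 7 were open in each library and in both, against 15.9%, 13.6% and 10.3% of all.

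Tcf3 had 1 of its 5 clusters open, the one at the 5′ end (chromosome 10, 80433621 to 80433647, 8 transcripts), and the other 4 were closed in both libraries. Tcf4, which is known to make long and short proteins from separate starts, had 4 of 18 clusters open. Its first annotated start was closed and the strongest peak near the 5′ end lay at the second cluster (chromosome 18, 69344146 to 69344529), with 4.95 (percentile 90.5) and 10.2 (91.6). The other strong start of Tcf4 lay 250 kb from the 5′ end of the gene (69592988 to 69593583, 10 transcripts), with 5.64 (92.8) and 6.52 (84.8). The internal start was therefore the stronger one in the library labelled replicate 1 and the weaker one in the one labelled replicate 2. The remaining open Tcf4 clusters were weak, with 1.03 and 1.22 at 69345719 to 69346360 and 0.643 and 0.732 at 69348256 to 69348944.

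Tcf12 had its first cluster open (chromosome 9, 72111202 to 72111871, 11 transcripts) and a second one just inside the gene (72110481), with 1.67 (60.8) and 3.36 (71.5). Its internal start cluster at 71895985 to 71896396, with 4 transcripts and also an entry of the RefSeq promoter table, had no peak in the shorter or longer list and no listed interval of the deposited FDR table in either library. Id2 had both clusters open, with the downstream one, at 25096087 to 25096092 on chromosome 12, far the stronger: 7.88 and 13.2 against 1.39 and 0.663. Id3 had both open, at 3.92 and 11.7 for the first (chromosome 4, 136143497 to 136143864) and 1.25 and 4.96 for the second. Id1 and Id4 have 1 cluster each.

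**Figure D2:**
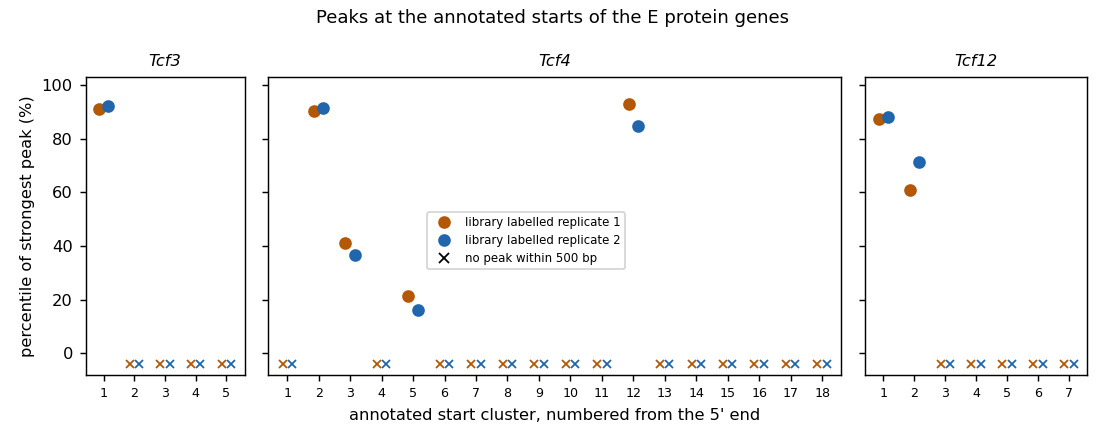
Percentile of the strongest peak (vertical axis, percent) at each annotated start cluster of Tcf3, Tcf4 and Tcf12, numbered from the 5′ end, with crosses where no peak lay within 500 bp. Points and crosses of the 2 libraries fall at the same clusters, 1 of 5, 4 of 18 and 2 of 7.

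The 23 closed clusters were looked up in the more permissive files. Of these, 4 had a peak in the longer list of either library and 0 in both, and 19 had no listed interval, meaning none with an FDR below 0.05, in either library. Listed intervals in both libraries were found at 2 closed clusters, both of Tcf4. The lowest listed FDR was 6.77e-17 and 8.02e-10 at 69594182, and 0.00698 and 0.0254 at 69347299 to 69347345. A closed start thus had no peak in the shorter lists but could still hold listed intervals. At the open starts the lowest listed FDR was 1.37e-210 and 1.15e-144 at the main start of Id2. At Id4 it was 5.29e-141 and 2.51e-05, so the weak peak of the library labelled replicate 2 was still listed well below that limit.

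Distal peaks, those more than 1 kb from any transcript start, numbered 43 over the 7 genes in the library labelled replicate 1 against 35 in the one labelled replicate 2. At least 1 was present at 6 of the 7 genes in each library, against 70.2% and 61.8% of all genes. Id4 had 0 in both. Counts were 2 and 3 at Tcf3, 14 and 10 at Tcf4, 6 and 5 at Tcf12, 4 and 2 at Id1, 13 and 7 at Id2, and 4 and 8 at Id3. Per 100 kb the median over all genes was 2.17 and 1.6. Id2 had 30.0 and 16.2 per 100 kb, at the percentiles 99.6 and 99.1 of all genes. Id3 had 9.47 and 18.9, at 92.5 and 99.5. The long genes Tcf4 (3.63 and 2.59) and Tcf12 (1.94 and 1.62) lay near the median.

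Merged over the libraries these peaks made 54 distal regions, of which 18 (33.3%) were open in both libraries, 22 (40.7%) in the library labelled replicate 1 only and 14 (25.9%) in the one labelled replicate 2 only. Of all 68609 distal regions the shares were 24.3%, 50.5% and 25.3%. At least 1 shared region was present at 6 of the 7 genes, against 51.3% of all genes. The libraries went opposite ways at Id2 and Id3. Id2 had 5 shared regions, 5 of the library labelled replicate 1 only and 0 of the one labelled replicate 2 only, and Id3 had 4, 0 and 4. Id1 had 2, 2 and 0, Tcf3 1, 1 and 1, Tcf4 4, 10 and 6, and Tcf12 2, 4 and 3. Of the regions in 1 library only, 2 of 22 and 4 of 14 touched a longer-list peak called in the other one, against 9.43% and 13.5% of all such distal regions. These were 2 at Id2 in the former, and 2 at Id3, 1 at Tcf3 and 1 at Tcf4 in the latter.

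**Figure D3:**
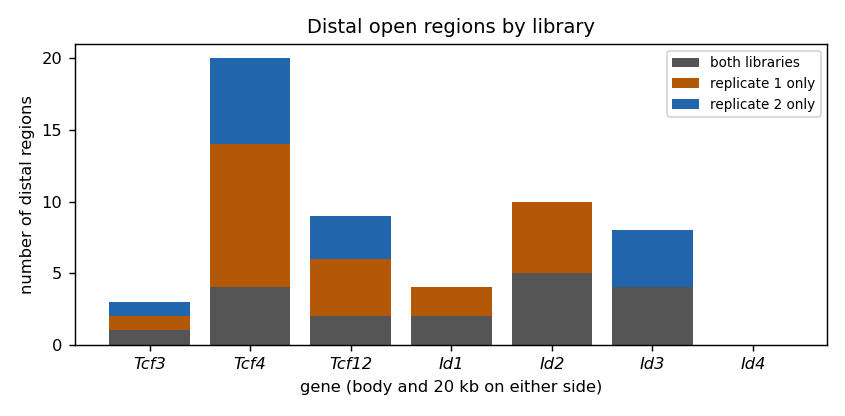
Number of distal regions over each gene and 20 kb on either side (vertical axis, count), stacked by the library that holds them. Id2 has 5 regions of the library labelled replicate 1 alone and Id3 has 4 of the one labelled replicate 2 alone.

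The Id3 gene (ENSMUSG00000007872.3, chromosome 4, 136143497 to 136145755, plus strand) had its distal peaks mostly downstream. The region at 4.42 kb had a signal of 3.01 (percentile 79.6) and 10.3 (91.7). The region at 20.2 kb had 4.49 (88.7) and 10.6 (92.1), and the one at 16.8 kb (136160201 to 136160400) 1.91 (65.8) and 3.42 (72.0). The shared region 3.04 kb upstream was the one with less signal in the library labelled replicate 2, with 2.57 (75.3) and 1.83 (52.7). The 4 regions of the library labelled replicate 2 only lay 4.97, 5.50, 6.42 and 15.2 kb past the 5′ end, with signals of 3.70, 1.43, 2.48 and 1.95. Those at 4.97 and 6.42 kb overlapped a peak of the longer list for the library labelled replicate 1.

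Id2 (ENSMUSG00000020644.9, chromosome 12, 25093799 to 25097140, minus strand) was flanked by open regions on both sides. The strongest in the library labelled replicate 2 lay 4.67 kb past the 5′ end (25092381 to 25092560), with 4.09 (86.8) and 7.12 (86.3). The strongest in the library labelled replicate 1 was the upstream region shown above, with a peak signal of 4.45 (88.6), against 2.59 (64.5) in the one labelled replicate 2. Another lay at 4.18 kb, with 2.19 (70.4) and 1.75 (51.0). The shared regions 3.12 and 3.91 kb upstream were weaker, with 1.11 (43.8) and 0.570 (8.5), and 0.941 (36.9) and 0.817 (20.3). The peaks 13.3 and 13.7 kb upstream, with 1.95 (66.6) and 0.847 (32.4), were found in the library labelled replicate 1 only. Of the 5 Id2 regions of the library labelled replicate 1 only, 2 overlapped a peak of the longer list for the one labelled replicate 2, at 3.59 kb past the 5′ end and 2.37 kb upstream. Some peaks of one list overlap each other. With such peaks merged, a setting added after the data were seen, Id2 had 11 distal peaks in place of 13 in the library labelled replicate 1 and Tcf3 had 2 in place of 3 in the one labelled replicate 2, which made 41 and 34 over the 7 genes.

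Id1 (ENSMUSG00000042745.9, chromosome 2, 152736251 to 152737410, plus strand) had shared regions 3.37 and 6.39 kb past its start. The first had 1.99 (67.3) and 1.37 (41.5) and the second 2.85 (78.2) and 2.70 (65.8). Its strongest distal peak, 2.85 kb upstream with 3.79 (85.1), and another 6.43 kb upstream with 2.11 (69.2) were found in the library labelled replicate 1 only. Id4 (ENSMUSG00000021379.2, chromosome 13, 48261228 to 48266026, plus strand) had 5 peaks around it in the library labelled replicate 1 against 1 in the one labelled replicate 2, all within 1 kb of a start of Id4 or of a neighbouring noncoding gene. The deposited FDR table listed 8.72% of the bases of the gene and its flanks in the library labelled replicate 1 against 1.20% in the one labelled replicate 2.

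Among the E protein genes, Tcf3 (ENSMUSG00000020167.14, chromosome 10, 80409514 to 80433647, minus strand) had its strongest distal peak 12.8 kb upstream, with 4.56 (89.1) and 5.30 (81.2). An intronic peak 15.2 kb into the gene (1.88, 65.3) was seen in the library labelled replicate 1 only, and a peak in Uqcr11, 30.1 kb past the 5′ end (1.17, 35.2), in the one labelled replicate 2 only. The Uqcr11 peak overlapped a peak of the longer list for the library labelled replicate 1. Another peak of the library labelled replicate 2, 1.37 kb into the gene (1.41, 42.6), lay just beyond the promoter limit but inside a wider promoter peak of the same list. Tcf12 (ENSMUSG00000032228.16, chromosome 9, 71842688 to 72111871, minus strand) had its strongest one beyond the 3′ end at 71831901 to 71832060, with 4.75 (89.8) and 4.65 (78.6). Its other shared region was intronic, 136 kb into the gene, with 1.56 (58.2) and 0.771 (18.0). The intronic peaks 11.3, 13.6 and 14.6 kb into Tcf12, with 0.902, 0.902 and 0.940, belonged to the library labelled replicate 2 only, and that at 27.5 kb (1.35, 52.2) to the one labelled replicate 1 only.

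Tcf4 (ENSMUSG00000053477.17, chromosome 18, 69343356 to 69689079, plus strand) had many weak distal peaks, with a median percentile of 25.6 and 18.8. The strongest was intronic in both libraries (69507901 to 69508060, 165 kb into the gene), with 2.73 (77.0) and 3.04 (69.0). An intronic region 194 kb into the gene had 0.510 (13.6) in the library labelled replicate 1 against 2.38 (61.8) in the one labelled replicate 2. The other shared regions, at 228 and 332 kb, had 0.862 (33.2) and 1.27 (38.5), and 0.776 (28.8) and 0.616 (10.6). A pair of adjoining peaks 347 kb past the 5′ end, just beyond the gene, with 1.45 (55.3) and 0.941 (36.9), and an intronic peak at 192 kb with 1.27 (49.8) were found in the library labelled replicate 1 only.

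**Figure D4:**
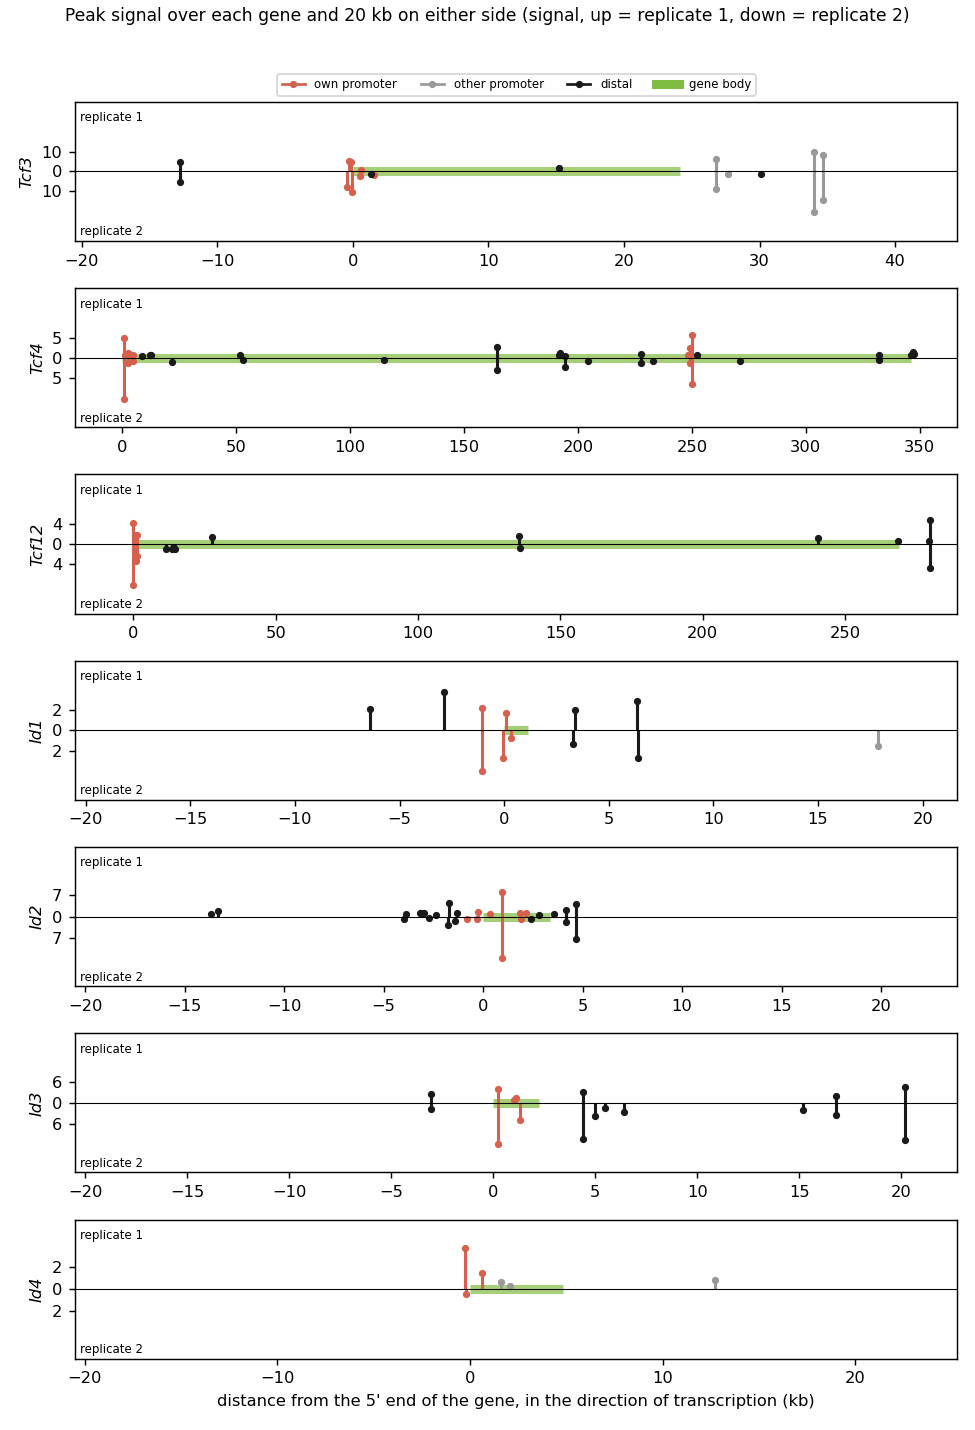
Signal of each peak (vertical axis, upward for replicate 1 and downward for replicate 2, scaled per gene) against its distance from the 5′ end of the gene in kb. Id3 has a run of distal peaks downstream, Id2 has them on both sides, Tcf4 has strong promoter peaks near 1 and 250 kb, and Id4 has none that are distal.

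Signals were also compared as ratios, replicate 2 over replicate 1, against all 35217 regions open in both libraries, where the median ratio was 1.34 and the range without the lowest and highest 5% ran from 0.378 to 3.32. The median over shared promoter regions was 1.55 and over shared distal regions 1.13. The 17 promoter regions of the 7 genes had a median of 1.67 and the 18 distal ones of 0.964. Id3 was at the upper end. Its promoter regions had ratios of 2.99 and 3.98 (percentiles 93.3 and 96.9 of all shared regions) and its distal regions 3.42, 2.36, 1.80 and 0.713. Tcf3 promoter regions had 2.06 and 3.01, the latter just above the lower Id3 promoter value. The strongest Tcf4 promoter region near the 5′ end had 2.06, and those of Tcf12 had 1.94 and 1.89.

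Id4 was at the lower end, with 0.125, at the percentile 0.3 of all shared regions. Id2 was mixed: the main promoter had 1.67 and the region at 4.67 kb 1.74, but the other promoter regions had 0.676 and 0.478 and the other distal regions 0.800, 0.581, 0.516 and 0.868. The Tcf4 intronic region at 194 kb had 4.67 (percentile 97.9), the highest among the promoter and distal regions of the 7 genes. At the starts of Tcf4 the ratio was 2.06 near the 5′ end and 1.16 at the internal start. These ratios rest on 1 library each and carry no replicate error. Over the same 2 libraries the summed promoter signal of the thymocyte markers was 8.30 and 87.3 and that of the acinar markers 70.5 and 11.8, and their part in the ratios was not tested.

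**Figure D5:**
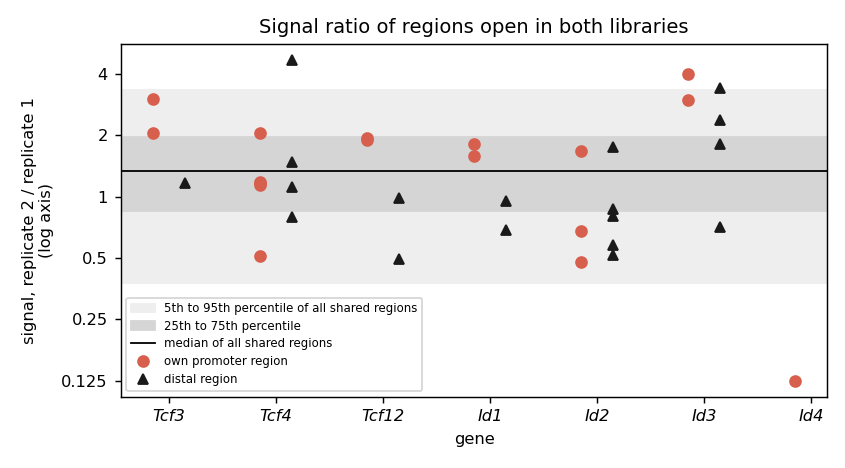
Ratio of signal, replicate 2 over replicate 1 (log axis), of each region open in both libraries, with bands for the 25th to 75th and the 5th to 95th percentile of all 35217 shared regions and a line at their median of 1.34. Both Id3 promoter regions lie at 2.99 or above near the upper edge of the wider band, and the Id4 promoter lies at 0.125, far below it.

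There were 277 footprints in the library labelled replicate 1 against 273 in the one labelled replicate 2 over the 7 genes, and 196 and 189 lay in peaks. Of the 277 and 273 footprints, 125 (45.1%) and 128 (46.9%) overlapped one of the other library, against 35.1% and 39.4% of all footprints. For the library labelled replicate 1 the overlapping share was highest at Id3, with 21 of 27 (24 of 47 in the other), and at Tcf3, with 31 of 41 (31 of 66). The Tcf3 counts include footprints in promoter peaks of other genes in the flank, 34.7, 34.0 and 26.8 kb past the 5′ end. In the library labelled replicate 1 these peaks had signals of 8.11, 10.1 and 6.22. There 4 of 4, 7 of 8 and 4 of 5 of their footprints overlapped. Tcf4 had 17 of 78 and 20 of 56, Tcf12 14 of 34 and 14 of 33, Id1 12 of 32 and 12 of 25, Id2 26 of 46 and 24 of 43, and Id4 4 of 19 and 3 of 3.

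The E-box forms CAGCTG or CAGGTG, either strand, stood in 10 footprints (3.61%) of the library labelled replicate 1 and in 3 (1.10%) of the one labelled replicate 2, against 3.47% and 2.09% of all footprints. These shares were near or below the background. Of the 10, 4 overlapped a footprint of the other library, and of the 3, 3 did. The overlapping ones lay at Id2 and Id3. Of the 6 others of the library labelled replicate 1, 2 lay at Tcf4, 2 at Id2, 1 at Id1 and 1 at Id4. The 4 that overlapped are shown with 10 bases on either side of the footprint and the E-box forms in capitals, from the library labelled replicate 1. The first is in the Id2 promoter (chr12:25096272-25096301, minus strand), the second 1.89 kb upstream of Id2 (chr12:25099011-25099056, minus strand), and the last 2 are 16.8 and 20.2 kb past the 5′ end of Id3 (chr4:136160311-136160343 and chr4:136163642-136163672, plus strand).
Id2 promoter footprint: caatttgccacccCAGCTGggctctcgccc
Id2 upstream footprint: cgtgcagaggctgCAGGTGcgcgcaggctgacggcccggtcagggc
Id3 footprint at 16.8 kb: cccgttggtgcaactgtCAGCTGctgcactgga
Id3 footprint at 20.2 kb: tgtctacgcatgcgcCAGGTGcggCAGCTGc

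At 20.2 kb the footprint had the same ends in both libraries (136163652 to 136163662). At 16.8 kb it ran from 136160321 to 136160333 in the library labelled replicate 1 and from 136160320 to 136160334 in the one labelled replicate 2. At the Id2 upstream site it ended at 25099046 in both but was 26 bp long in the library labelled replicate 1 and 13 bp in the one labelled replicate 2. The Id2 promoter footprint with the whole word CAGCTG was that of the library labelled replicate 1. In 200-base windows on the 18 shared distal regions CAGCTG stood in 6 (33.3%), against 15.4% of all 16653 such regions, and CAGGTG in 6 (33.3%), against 24.2%. The counts are small and neighbouring regions of one gene are not independent.

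Other words were counted in the same way. CANNTG, any E-box, stood in 6.14% and 4.76% of the footprints of the 7 genes, against 6.65% and 4.64% of all. GGGCGG of SP and KLF factors stood in 8.30% and 8.79%, against 4.55% and 6.00% of all footprints. GGCGCC, a form bound by SMAD proteins downstream of BMP receptors, stood in 2.89% and 3.66%, against 1.15% and 1.57%. The 2 words can share bases. These footprint shares do not separate promoter from distal peaks. In windows on promoter peaks of the 7 genes, GGGCGG stood in 35.7% (replicate 1) and 54.5% (replicate 2). Over all promoter peaks it stood in 38.7% and 47.4%. GGCGCC stood in 10.7% and 27.3% of these windows, against 13.7% and 16.6% of all. The promoter windows therefore showed no excess of either word in the library labelled replicate 1. In the shared distal regions each of the 2 words stood in 6 of 18, against 11.6% and 9.52% of all. Both words stood together in a footprint 1.74 kb upstream of Id2 in both libraries. CREB-type TGACGTCA was found in 1 footprint in each library, the same Id1 site shown above, against 0.158% and 0.210% of all footprints. The words TGTGGT of RUNX factors, CCGGAAG of ETS factors, ATCAAAG of TCF1 and LEF, AGATAA of GATA factors and GCGTGGGCG of EGR factors stood in 0 or 1 footprint each per library, and the 14-base consensus of CTCF, a factor that organises chromatin loops, in 0. None of these words stood in more than 0.809% of all footprints of either library. A looser CTCF core of 11 positions, 6 of them fixed, chosen after the sequences were seen, stood in 11 (3.97%) and 12 (4.40%), against 4.44% and 5.45%, and in 11 of the 18 shared distal regions (61.1%), against 61.3%. It also stood in footprints of both libraries right beside the Id3 E-box footprints at 16.8 and 20.2 kb. In the library labelled replicate 1 these ran from 136160288 to 136160315 and from 136163668 to 136163698. The CAGCTG at 20.2 kb runs into the latter. The long footprint of the Tcf3 upstream region held this core too. CCAAT of NFY stood in 1.81% and 1.10%, against 1.24% and 1.08%.

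Genes that work with the E proteins were read from lists of symbols. Tissue-restricted basic helix-loop-helix partners, which pair with E proteins, were mostly closed: of 25, 10 promoters were open in the library labelled replicate 1, 5 in the one labelled replicate 2 and 3 in both (Tal2, Ascl2 and Bhlha15). Bhlha15, a factor of secretory cells, had 5.97 (93.7) and 3.78 (74.3), and Tal2 1.46 (55.5) and 0.655 (12.4). Open in the library labelled replicate 1 only were 7, led by Ptf1a, the pancreatic partner (6.95, percentile 95.9), Scx (1.98, 67.1) and Tal1 (0.925, 36.2). Lyl1 (1.49, 44.7) and Tcf15 (0.462, 4.1) were open in the library labelled replicate 2 only. Over all genes 63.1% and 60.1% had an open promoter in the 2 libraries and 56.7% in both. In 1 library only, 6.41% and 3.37% of all genes were open in these directions. Ptf1a and Bhlha15 are also among the acinar markers above, with 18 distal peaks each in the library labelled replicate 1 against 0 in the one labelled replicate 2.

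Cofactors of E protein complexes were open in 11 and 10 of 11, with 10 in both. For this list and the next, the shares over all protein-coding genes were 63.1% and 60.1%, with 56.7% in both. The highest were Cbfa2t2, a corepressor of the ETO family, with 7.75 (97.1) and 19.2 (98.4), Cbfa2t3 with 5.55 (92.5) and 10.9 (92.5), and Crebbp, a histone acetyltransferase, with 5.70 (92.9) and 10.2 (91.5). Runx1t1 (0.478, 11.9) was open in the library labelled replicate 1 only. Receptors, SMAD factors and EGR factors that induce Id genes were open in 11 and 12 of 12, with 11 in both. They were led by Tgfbr1 with 9.89 (99.1) and 20.8 (98.9), Egr1 with 7.86 (97.3) and 20.4 (98.8), and Smad4 with 7.02 (96.0) and 17.5 (97.8). Egr3 (4.29, 77.0) was open in the library labelled replicate 2 only.

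Lymphocyte genes known as E protein targets were open in 7 of 13 in the library labelled replicate 1 and 12 of 13 in the one labelled replicate 2. The shares over all protein-coding genes were 63.1% and 60.1%, with 56.7% open in both and 3.37% in the library labelled replicate 2 only. The 7 were open in both, among them Hes1 with 6.33 (94.6) and 6.55 (84.9) and Gfi1 with 7.04 (96.0) and 5.91 (83.2). Open in the library labelled replicate 2 only were 5, led by Rag1 (4.75, 79.0) and Rag2 (3.81, 74.5) of the recombinase that joins receptor gene segments, and Ptcra (2.85, 67.2), the pre-T cell receptor chain. Of these 5, 4 are also in the thymocyte marker list. Igll1 was closed in both.

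The genes most like each of the 7 were found from 4 values, the percentiles of the strongest promoter peak and of the distal peak count in each of the 2 libraries. They were Adnp2 and Ndufb9 for Tcf3, Fam222a and Mcl1 for Tcf4, Smox and Tnk2 for Tcf12, Bri3bp and Il27ra for Id1, Adk and Sgk1 for Id2, Stk10 and Csk for Id3, and Tnfaip8l3 and Zfp960 for Id4. The summed difference was smallest for Adnp2 (0.246 percentile points) and largest for Il27ra (5.45). The promoter percentiles were among the values used for this choice, so a likeness in them was set by it. They were 86.6 and 92.0 for Stk10, chosen for Id3, and 84.6 and 2.9 for Tnfaip8l3, chosen for Id4.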

How the data were processed

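DNase-seq was read in 2 libraries of 1 group. All coordinates are on mm10, per the labels. Each library's peak lists, footprint list and FDR table were made from its own filtered alignment, per the deposited notes. The sources used here do not name the aligner, the callers, their thresholds or the scaling of the signal. Each deposited peak has a signal, which was never negative. The deposited FDR tables list intervals with an FDR (a corrected p-value) under 0.05. The score of the deposited footprint lists was 0.01 in every row and was not used. Without read counts in these files, depth is unknown and no counting interval could be given.

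Each library has 2 peak lists, and the shorter was used (85367 and 60644 peaks, median width 200 bp in both), the longer (126824 and 88164) being an alternative. The footprint lists held 316358 and 270843 entries. Promoters were within 1 kb of any transcript start of GENCODE vM21, distal peaks beyond that, and peaks were shared at 1 bp of overlap or more. The percentile is the rank of a peak's signal in its own list. Consensus words were counted on both strands with pysam 0.24.0 on GRCm38.p6 (Python 3.11.15, numpy 2.4.6). Overlap counting was tested on simulated intervals.

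The 7 genes, the gene and marker lists and the words were chosen with earlier results of these data known. All 7 genes were named with every start cluster, every shared distal region and up to 3 of the strongest distal peaks per library. From the gene lists, the text names 3 genes at most by mean percentile and 3 at most per library among those open in 1 library only, and for each of the 7 genes the 2 most alike. Other names were chosen after their values were seen. Some genes of these lists are not reported here. Alternatives were other promoter windows, flanks, overlaps, peak lists, stronger peaks, start distances, 1 library left out and merged peaks.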

Additional observations from a re-analysis of the deposited data

How the results depend on the processing

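Of 53 alternative values, 41 were within 1.5 times the value reported and 12 were not. Promoter openness at the 7 genes held under every alternative tried except the stronger 50% of peaks, where Id4 was no longer open in the library labelled replicate 2 and 6 of 7 were open in both. With flanks of 100 kb the distal peaks were 118 and 100 in the 2 libraries, the shared distal regions 42 and the footprints 740 and 715, since more sequence was read. The longer peak list gave 66 distal peaks in the library labelled replicate 1. The stronger 50% of peaks gave 19 and 15 distal peaks, 11 shared distal regions and 8 open start clusters. The distal regions of 1 library alone, with the other left out, were 32 to 40 in place of 18 shared ones, since sharing is then not required. With starts joined at 200 bp, 16 of 49 clusters were open in both libraries. No paired analysis was possible because there is 1 group. The unknown depth limits every statement that a peak or footprint was not listed: it was not detectable at this depth.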
